A study of Mus musculus with 2 samples.

Results

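The 10 genes described here make up the epithelial and non-neuroendocrine panel of these tumours. The 7 epithelial members are the keratin genes Krt7, Krt8, Krt18 and Krt19 and the claudin genes Cldn3, Cldn4 and Cldn7. The 3 members commonly read as non-neuroendocrine or mesenchymal are Vim, Anxa2 and Snai2. They were taken by symbol from the gene rows of both count matrices, which held 28692 genes each, and all 10 were found.

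RNA of single live cells, sorted by GFP from lung tumours labelled small cell lung cancer, was sequenced in 2 libraries. The cisplatin library came from mice of mixed strain with CGRPCreER/+, the floxed alleles Rbf/f, P53f/f and Ptenf/f and the reporter Rosa26mTmG, and these were given cisplatin at 5 mg/kg every 4 days for 2 weeks. The vehicle library came from mice of the same genotype and strain label that were given saline on the same schedule. The library protocol also names cisplatin/etoposide for the treated tumours. Both groups carry the floxed alleles, so neither is wild type, and the Cre recombinase is driven from the CGRP (Calca) locus of neuroendocrine cells. The labels give neither the ages, the number of animals nor any pooling, and 5000 cells were loaded per library. Each group is 1 library, so treatment and library cannot be told apart, no test was possible, and the intervals given are 95% intervals for counting error only.

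Keratins are intermediate filament proteins of epithelial cells, in which a type I and a type II chain pair: Krt8 with Krt18 is the founding pair of simple epithelia, and Krt7 (type II) and Krt19 (type I) join them in glandular and ductal epithelia. Claudins are the membrane proteins that form tight junction strands. Vimentin, encoded by Vim, is the type III intermediate filament of mesenchymal cells, annexin A2 is a calcium-dependent membrane-binding protein that forms a complex with S100A10, and Snai2 (Slug) is a zinc-finger repressor of epithelial genes that binds E-box DNA. Small cell lung cancer is an epithelial tumour with neuroendocrine features, and its non-neuroendocrine cells are known to carry vimentin and other mesenchymal proteins. Hhex is a homeobox transcription factor of endoderm and of pancreatic delta cells, and it was used here to split the cells.

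In GENCODE M21 (GRCm38) Krt7 lies on chr15:101411043-101430313, Krt8 on chr15:101996698-102004482 and Krt18 on chr15:102028180-102032027. Krt8 and Krt18 are on opposite strands with 23697 bases between them. Cldn4 on chr5:134945119-134946934 and Cldn3 on chr5:134986214-134987472 are likewise on opposite strands, 39279 bases apart. Krt19 lies on chr11:100140810-100148665, Cldn7 on chr11:69964779-69967885, Vim on chr2:13573927-13582826, Anxa2 on chr9:69453620-69491795 and Snai2 on chr16:14705852-14709385. Krt7, Krt8, Cldn3 and Anxa2 overlap an annotated gene on the other strand. Of these partners Wbscr25, opposite Cldn3, had 346 UMIs and Gm16144, opposite Anxa2, had 0. The strand setting of the counting is not given in the sources used here, so reads of such overlaps cannot be assigned with certainty.

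RefSeq promoter windows (GRCm38.p6) were matched for 8 of the 10 members, all but Krt19 and Snai2. Each window of 250 bases before the start was searched on both strands for CAGGTG, the E-box form that Snai factors bind, which is read as CACCTG from the opposite strand. The windows were also searched on both strands for the TATA box form TATAAA. The E-box form was found in 17.2% of 32851 promoter windows of the same length and TATAAA in 12.4%. Krt7, Krt8, Krt18 and Cldn4 each held 1 E-box of this form, and of the 2 Cldn7 windows 1 held none and 1 held 2. The window of Cldn3 held neither motif, and those of Vim and Anxa2 held 1 TATAAA each. Only the E-boxes of Krt18 and Cldn4 lay before the first base of an annotated exon in their windows. The E-boxes of Krt7, Krt8 and Cldn7 and the TATAAA of Vim and Anxa2 lay past that base. A match of letters is a description and shows no binding. The windows of 4 members are printed 5′ to 3′ on the gene's strand, as far as they lie outside annotated exons, because they set the neighbouring claudins side by side with a simple-epithelial keratin and with Anxa2, a member that differed between the groups. Capitals mark the E-box form.
Krt18, chr15:102027966-102028179, plus strand: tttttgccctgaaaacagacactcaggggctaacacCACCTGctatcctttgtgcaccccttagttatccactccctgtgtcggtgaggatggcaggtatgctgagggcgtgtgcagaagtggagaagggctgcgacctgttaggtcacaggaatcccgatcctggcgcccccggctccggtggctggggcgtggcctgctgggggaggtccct
Cldn4, chr5:134946935-134947184, minus strand: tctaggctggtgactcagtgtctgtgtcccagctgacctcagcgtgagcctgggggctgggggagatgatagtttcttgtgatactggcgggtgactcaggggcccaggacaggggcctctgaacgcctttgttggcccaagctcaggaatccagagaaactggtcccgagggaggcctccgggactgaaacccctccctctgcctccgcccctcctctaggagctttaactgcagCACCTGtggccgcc
Cldn3, chr5:134985964-134986213, plus strand: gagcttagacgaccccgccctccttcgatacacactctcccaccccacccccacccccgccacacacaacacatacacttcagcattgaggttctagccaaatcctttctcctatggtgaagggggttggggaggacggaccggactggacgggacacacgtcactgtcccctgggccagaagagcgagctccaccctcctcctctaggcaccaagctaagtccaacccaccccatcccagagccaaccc
Anxa2, chr9:69453433-69453619, plus strand: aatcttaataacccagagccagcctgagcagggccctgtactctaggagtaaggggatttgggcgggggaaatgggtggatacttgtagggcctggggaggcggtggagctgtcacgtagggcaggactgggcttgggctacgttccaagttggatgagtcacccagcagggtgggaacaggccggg

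After filtering, 4210 tumour cells of the cisplatin library and 3645 of the vehicle library were compared. Their median depth was 5940.5 UMIs (unique molecular identifiers, each a counted RNA molecule) per cell in cisplatin and 8208 in vehicle. Of the 12 neuroendocrine markers, 12 were detected in each library. The granule protein gene Chga had 709 CPM (UMIs per 1000000) in cisplatin and 368 CPM in vehicle, the neuroendocrine factor Insm1 945 and 523 CPM, and the vesicle gene Syp 101 and 81.1 CPM. Both libraries thus carried the markers of the labelled cell type. The libraries shared 23 cell barcodes. Ratios and calls compare the same gene between groups. Where different genes are called scarce or abundant, this refers to UMIs as counted, which are not scaled by length. Fewer cells of a kind and less RNA per cell cannot be told apart in the summed values, which is why shares of cells are given beside them.

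The keratin and claudin members were present at similar summed levels in cisplatin and vehicle cells, whereas Vim, Anxa2 and Snai2 were higher in cisplatin cells. Of the 10 members, 3 were at least 1.5-fold higher in cisplatin cells and 0 were at least 1.5-fold lower. Among all 13370 genes with at least 50 UMIs over both groups, 8.15% were higher and 21.3% lower by that rule, 29.5% in all. All 10 members passed this minimum of 50 UMIs, Vim only through its UMIs in cisplatin cells. The summed level of the 7 epithelial members was 5485 CPM (interval 5458 to 5512) in cisplatin cells and 5564 CPM (5538 to 5590) in vehicle cells. The summed level of the 3 non-neuroendocrine members was 116 CPM (112 to 120) in cisplatin cells and 30.4 CPM (28.6 to 32.4) in vehicle cells.

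Krt7 had 1388 CPM in cisplatin cells and 1339 CPM in vehicle cells. Krt18, the type I partner of Krt8, had 1448 CPM in cisplatin cells and 1321 CPM in vehicle cells. Krt8 went the other way from its partner, with 1145 CPM in cisplatin cells and 1490 CPM in vehicle cells, a log2 ratio of -0.38 that stayed inside the 1.5-fold limit. Krt19 was far scarcer, at 21.2 CPM in cisplatin cells and 16.7 CPM in vehicle cells, and its intervals of 19.5 to 23.0 and 15.3 to 18.2 CPM did not overlap.

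Cldn3 had 696 CPM in cisplatin cells and 670 CPM in vehicle cells, and Cldn7, the other abundant claudin, had 695 and 662 CPM. Cldn4 showed the largest ratio among the epithelial members, with 91.3 CPM in cisplatin cells and 65.5 CPM in vehicle cells (log2 ratio 0.48). Its UMIs were spread unevenly: 25.8% of cisplatin cells had any, a single cell held 55, and the 5 highest cells held 7.33% of all. Over all genes the median log2 ratio was -0.18. Relative to that median the ratio of Cldn4 was 0.66 and that of Krt8 -0.20, and with TMM or median-of-ratios scaling Cldn4 passed the 1.5-fold limit, so that 4 members were called.

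Vim had 441 UMIs in cisplatin cells and 22 in vehicle cells, or 15.5 CPM (14.0 to 17.0) and 0.687 CPM (0.431 to 1.04), a log2 ratio of 4.49. Anxa2 had 94.5 CPM (91.0 to 98.1) in cisplatin cells and 27.1 CPM (25.4 to 29.0) in vehicle cells, a log2 ratio of 1.80. Snai2, the scarcest in cisplatin cells, had 6.06 CPM (5.19 to 7.04) in cisplatin cells and 2.62 CPM (2.09 to 3.25) in vehicle cells, a log2 ratio of 1.21. None of these 3 pairs of intervals overlapped. The size of the Vim ratio rests on the removal of barcodes with markers of other cell types: with those barcodes kept in, its log2 ratio was 1.97, since 27 such vehicle barcodes carried 109 Vim UMIs, 92.7% of them in 5 barcodes.

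**Figure D1:**
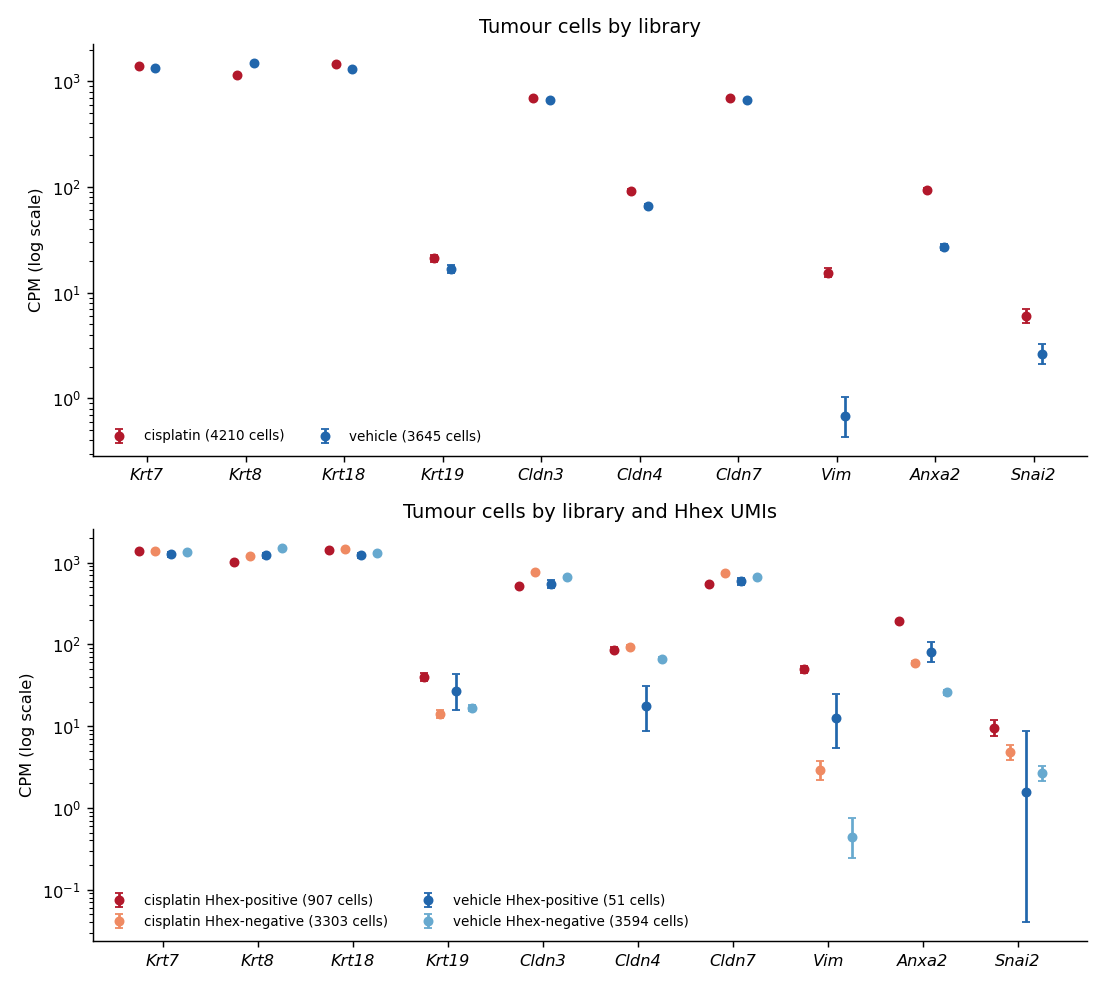
Summed level of each member in CPM on a log scale, with exact 95% Poisson intervals for counting error, in tumour cells by library (top) and by library and presence of a Hhex UMI (bottom). Krt7, Krt8, Krt18, Cldn3 and Cldn7 lie between 510 and 1495 CPM in every group, while Vim spans 0.446 to 49.7 CPM.

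Because the libraries differed in depth, each cell was thinned to 3000 UMIs, which left out 361 cisplatin and 143 vehicle cells below that depth. In the thinned cells Krt7, Krt8 and Krt18 were found in nearly every cell of both libraries, and Cldn3 and Cldn7 in most. Krt7 was found in 93.9% of cisplatin cells and 95.1% of vehicle cells, Krt8 in 91.7% and 96.3%, and Krt18 in 94.3% and 94.6%. Cldn3 was found in 81.8% of cisplatin cells and 80.9% of vehicle cells, and Cldn7 in 82.4% and 81.5%. Cldn4 was found in 15.6% of cisplatin cells and 13.7% of vehicle cells, and Krt19 in 5.22% and 4.37%.

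Vim was a gene of few cells. After thinning it was found in 100 of 3849 cisplatin cells, or 2.60% (2.12 to 3.15), and in 4 of 3502 vehicle cells, or 0.114% (0.0311 to 0.292). Unthinned, 5.32% of cisplatin cells and 0.384% of vehicle cells had a Vim UMI. Anxa2 was found in 18.8% (17.6 to 20.1) of thinned cisplatin cells and 6.42% (5.64 to 7.29) of vehicle cells, and in 30.9% and 15.6% unthinned. Snai2 was found in 1.45% (1.10 to 1.89) of thinned cisplatin cells and 0.771% (0.509 to 1.12) of vehicle cells, intervals that overlap slightly. The share was at least 1.5-fold higher in cisplatin cells for these 3 members and for no other member. The same count was not made over all genes, so it has no background beside it.

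Free RNA can place UMIs in cells that do not express a gene, and a comparison was made with barcodes of immune and endothelial cells. There were 30 such barcodes in both libraries together, with a median of 5023.5 UMIs. Krt7 and Krt8 were found in 73.3% of them (54.1 to 87.7), Krt18 in 66.7% (47.2 to 82.7), Cldn3 in 53.3% and Cldn7 in 56.7%. In unthinned tumour cells of the cisplatin library these shares were 97.9% for Krt7, 96.7% for Krt8, 98.2% for Krt18, 92.4% for Cldn3 and 92.5% for Cldn7. The keratin and claudin shares were thus higher in tumour cells but also high in the barcodes of other cells, and the source of the UMIs in those was not tested. Vim and Anxa2 are genes of immune and endothelial cells themselves, so this comparison gives no background for them.

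**Figure D2:**
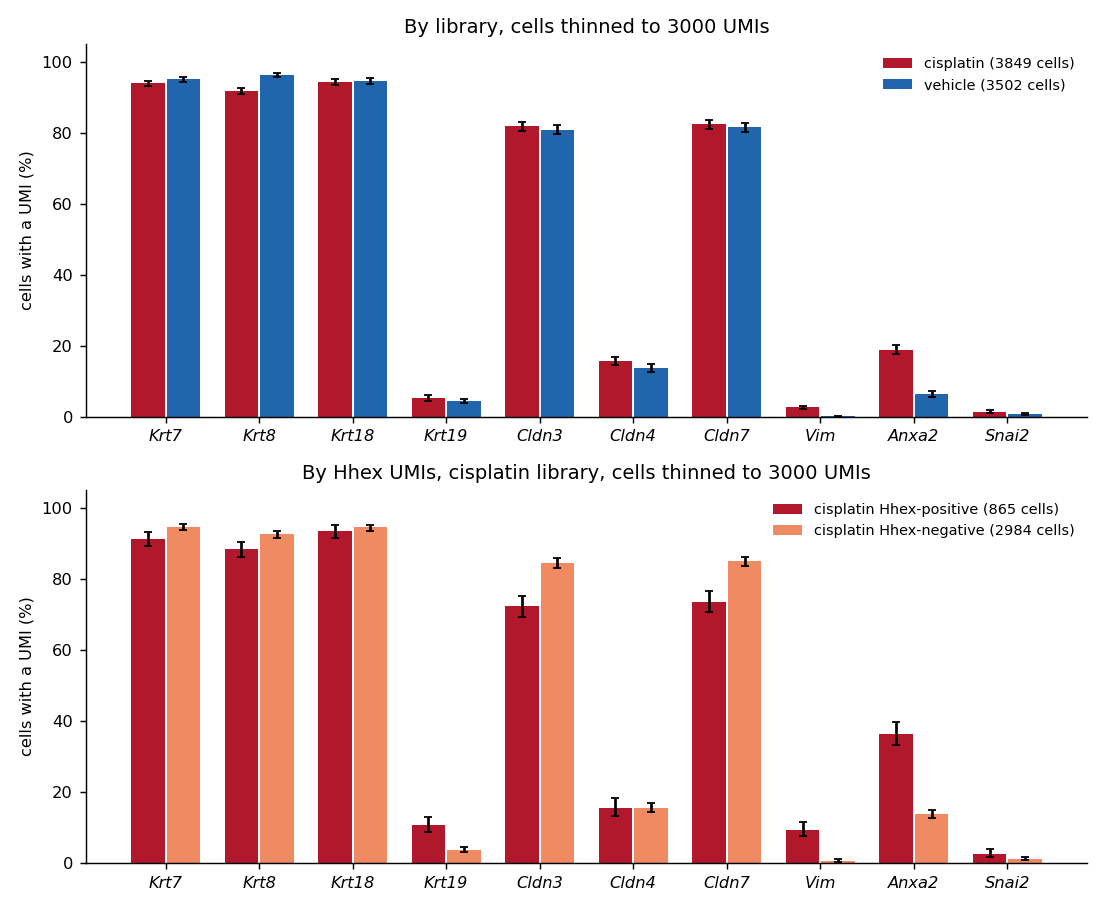
Percent of cells with at least 1 UMI of each member after thinning every cell to 3000 UMIs, with exact 95% binomial intervals, by library (top) and by Hhex in the cisplatin library (bottom). The abundant keratins and claudins are found in 72.4% to 96.3% of cells in all groups shown. Vim is found in 2.60% of cisplatin and 0.114% of vehicle cells and Anxa2 in 18.8% and 6.42%.

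Hhex itself had 125 CPM in cisplatin cells and 4.97 CPM in vehicle cells, and a Hhex UMI was found in 907 of 4210 cisplatin cells (21.5%) and 51 of 3645 vehicle cells (1.40%). Isl1, another endocrine homeobox gene, had 164 CPM in Hhex-positive and 7.76 CPM in Hhex-negative cells of the cisplatin library. In the same groups the 12 neuroendocrine markers summed to 10254 CPM in Hhex-positive and 8781 CPM in Hhex-negative cells. Chga had 1639 and 369 CPM, Insm1 937 and 948 CPM and Syp 102 and 101 CPM. Hhex-positive cells thus kept neuroendocrine markers. Hhex-positive cells were deeper, with a median of 7926 UMIs against 5529 UMIs in Hhex-negative cells, so that a Hhex UMI was also easier to find in deep cells. Of the 51 vehicle cells, 34 had a single Hhex UMI.

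Within the cisplatin library the 3 non-neuroendocrine members and Krt19 were higher in Hhex-positive than in Hhex-negative cells, and Cldn3 and Cldn7 were lower, both within the 1.5-fold limit. By the 1.5-fold rule 4 of the 10 members were higher and 0 lower, against 10.3% higher and 13.6% lower, 24% in all, among 12195 genes. Vim had 49.7 CPM (44.9 to 55.0) in Hhex-positive cells and 2.87 CPM (2.19 to 3.70) in Hhex-negative cells, a log2 ratio of 4.11. Anxa2 had 191 CPM (181 to 201) in Hhex-positive cells and 59.2 CPM (55.9 to 62.5) in Hhex-negative cells (log2 ratio 1.69). Snai2 had 9.53 CPM (7.47 to 12.0) in Hhex-positive cells and 4.79 CPM (3.90 to 5.83) in Hhex-negative cells (log2 ratio 0.99). For each of the 3 the intervals of the groups lay apart.

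The keratins divided. Krt19 had 40.3 CPM (36.0 to 45.1) in Hhex-positive cells and 14.2 CPM (12.6 to 15.9) in Hhex-negative cells (log2 ratio 1.51). Krt7 and Krt18 were nearly level, with 1370 and 1395 CPM for Krt7 and 1439 and 1451 CPM for Krt18 in Hhex-positive and Hhex-negative cells. Krt8 was a little lower, with 1006 CPM in Hhex-positive cells and 1196 CPM in Hhex-negative cells (log2 ratio -0.25). The log2 ratios of Krt7 and Krt18 were -0.03 and -0.01 and changed sign with TMM or median-of-ratios scaling, so no direction can be given for them.

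Cldn3 had 510 CPM (494 to 526) in Hhex-positive cells and 764 CPM (752 to 776) in Hhex-negative cells, a log2 ratio of -0.58 that lay just inside the 1.5-fold limit. Cldn7 had 553 CPM (536 to 570) in Hhex-positive cells and 747 CPM (736 to 759) in Hhex-negative cells (log2 ratio -0.43). Cldn4 had 86.0 CPM in Hhex-positive cells and 93.3 CPM in Hhex-negative cells, with overlapping intervals. After thinning, Cldn3 was found in 72.4% of Hhex-positive and 84.6% of Hhex-negative cells and Cldn7 in 73.6% and 85.0%. Vim was found in 9.36% (7.51 to 11.5) of Hhex-positive and 0.637% (0.384 to 0.993) of Hhex-negative cells, Anxa2 in 36.4% and 13.7%, and Krt19 in 10.8% and 3.62%. The count of lower members is sensitive to the definition of the groups: it was 2, Cldn3 and Cldn7, when Hhex-positive meant at least 2 UMIs or when both Hhex and Isl1 were required.

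Vim, Anxa2, Krt19, Cldn3 and Cldn7 differed more at higher numbers of Hhex UMIs in a cell, with most of the step reached at 2 to 3 UMIs. In cisplatin cells with 0, 1, 2 to 3, 4 to 7 and 8 or more Hhex UMIs, Vim had 2.87, 22.6, 48.4, 63.7 and 79.5 CPM. Anxa2 had 59.2, 116, 219, 235 and 223 CPM over the same classes, and Krt19 had 14.2, 24.2, 44.8, 48.0 and 51.9 CPM. Both were level from 2 to 3 UMIs upward within their intervals, whereas Vim in the highest class (65.7 to 95.5 CPM) exceeded its level at 2 to 3 UMIs (39.1 to 59.3 CPM). Cldn3 ran the other way, with 764, 647, 431, 459 and 452 CPM, as did Cldn7 with 747, 695, 515, 476 and 463 CPM and Krt8 with 1196, 1077, 1010, 973 and 926 CPM. Krt18 had 1451, 1454, 1509, 1495 and 1247 CPM and was lower only in the highest class, which held 135 cells. Median depth also grew over the classes, at 5529, 6983, 7426, 8376 and 9757 UMIs, and its part in these levels was not tested.

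**Figure D3:**
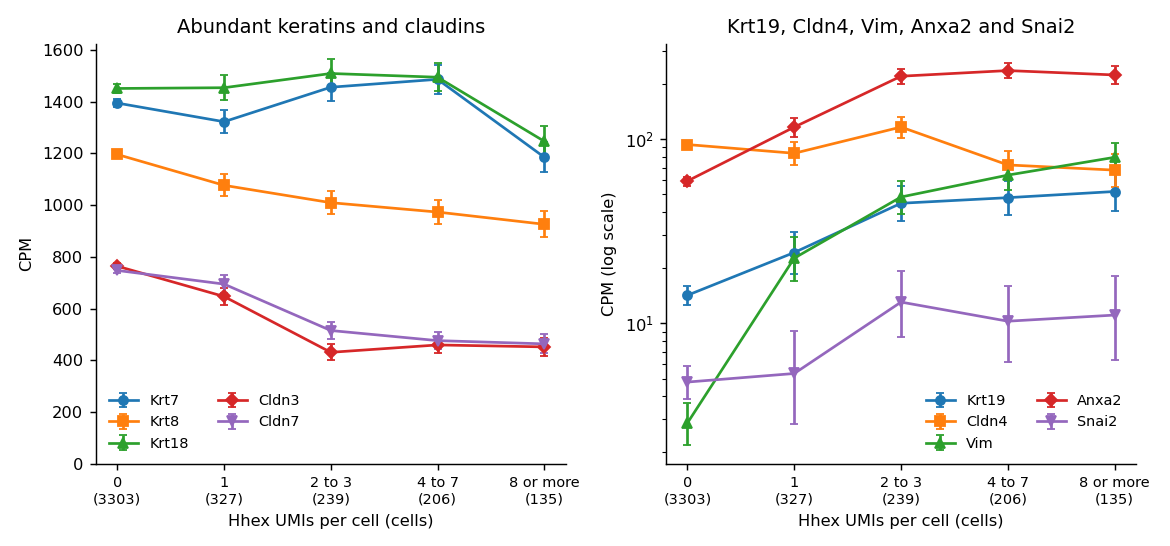
Summed level in CPM, with exact 95% Poisson intervals, of the abundant keratins and claudins (left, linear axis) and of Krt19, Cldn4, Vim, Anxa2 and Snai2 (right, log axis) in cisplatin tumour cells grouped by their Hhex UMIs, with the number of cells in brackets. Vim runs from 2.87 to 79.5 CPM and Cldn3 from 764 to 452 CPM over the classes.

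Seen from the members, 178 of the 224 cisplatin cells with a Vim UMI had a Hhex UMI, or 79.5% (73.6 to 84.6), against 21.5% of all cisplatin tumour cells. With at least 2 Vim UMIs it was 86 of 93 cells (92.5%), and with at least 5 it was 15 of 15. Of the cells with an Anxa2 UMI 40.9% had a Hhex UMI, of those with at least 5 Anxa2 UMIs 71.8%, of those with a Krt19 UMI 47.6% and of those with a Snai2 UMI 40.9%. For Krt8 the share was 21.5%, that of all cells. These are unthinned cells, in which deep cells are more often positive for both genes.

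The same split in the vehicle library rests on 51 Hhex-positive cells and is given as values. Vim had 8 UMIs in Hhex-positive cells, all in 3 cells, and 14 UMIs in 3594 Hhex-negative cells, or 12.7 CPM (5.47 to 25.0) and 0.446 CPM (0.244 to 0.748). The 34 vehicle cells with a single Hhex UMI had 0 Vim UMIs and 0 Isl1 UMIs, and all 8 Vim UMIs lay in the 17 cells with at least 2 Hhex UMIs. Anxa2 had 80.8 CPM in Hhex-positive and 26.1 CPM in Hhex-negative vehicle cells, Krt19 26.9 and 16.5 CPM, Cldn3 545 and 672 CPM, and Cldn7 591 and 663 CPM. Snai2 ran the other way, with 1 UMI or 1.58 CPM (0.0401 to 8.83) in Hhex-positive and 2.64 CPM (2.11 to 3.28) in Hhex-negative vehicle cells, within overlapping intervals. Cldn4 had 11 UMIs or 17.4 CPM (8.70 to 31.2) in Hhex-positive and 66.5 CPM (63.7 to 69.4) in Hhex-negative vehicle cells.

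Cells without a Hhex UMI still differed between the libraries for the same 3 members, by smaller ratios for each. By the 1.5-fold rule 3 of 10 members were higher in cisplatin and 0 lower, against 5.8% higher and 20.4% lower, 26.2% in all, among 13060 genes. Here too Vim passed the minimum of UMIs only through its UMIs in cisplatin cells. Its place in this count thus depends on the group in which it was high. Vim had 60 UMIs in cisplatin Hhex-negative cells and 14 in vehicle Hhex-negative cells, or 2.87 and 0.446 CPM (log2 ratio 2.69). This value is fragile: with the barcodes of other cell types kept in, the log2 ratio was -0.15. Anxa2 had 59.2 CPM in cisplatin and 26.1 CPM in vehicle Hhex-negative cells (log2 ratio 1.18), and Snai2 4.79 and 2.64 CPM (log2 ratio 0.86). Cldn4 had 93.3 and 66.5 CPM (log2 ratio 0.49), which exceeded the limit with TMM or median-of-ratios scaling. Krt19, at 14.2 CPM in cisplatin and 16.5 CPM in vehicle Hhex-negative cells, was not higher, and its intervals of 12.6 to 15.9 and 15.1 to 18.0 CPM overlapped. A cell with no Hhex UMI may still express Hhex at these depths, so the Hhex-negative group can hold cells of the other kind.

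The non-neuroendocrine members were found in cells that also held the epithelial members. In thinned cells the summed UMIs of the 7 epithelial members had a median of 16 per cell in both libraries, and only 4 of 3849 cisplatin and 2 of 3502 vehicle cells had 0. A UMI of Vim, Anxa2 or Snai2 was found in 809 cisplatin cells (21.0%) and 253 vehicle cells (7.22%). Of these cells, 86.3% in cisplatin and 92.1% in vehicle had at least 4 of the 7 epithelial members, close to the 89.5% and 92.0% of all tumour cells, and 1 cisplatin cell and 0 vehicle cells had none. Barcodes of immune and endothelial cells also held keratin UMIs, as given above (73.3% for Krt7 and Krt8, unthinned). By the same measure, at least 4 epithelial members were found in 5 of 8 thinned barcodes with markers of other cell types in cisplatin (62.5%). In vehicle it was 12 of 24 (50%). Those barcodes include some with markers of alveolar cells, which are epithelial. Among Hhex-positive cisplatin cells 41.4% had a UMI of a non-neuroendocrine member and 15.1% of Hhex-negative cells had one. At least 4 epithelial members were found in 82.0% of all Hhex-positive and 91.7% of all Hhex-negative cisplatin cells.

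The 100 Vim-positive cells of the thinned cisplatin library show the same by gene. Krt18 was found in 98.0% of Vim-positive cells (93.0 to 99.8) and 94.2% of the 3749 Vim-negative cells, Krt8 in 94.0% and 91.7%, and Krt7 in 91.0% and 94.0%. Cldn3 was found in 68.0% of Vim-positive cells (57.9 to 77.0) and 82.2% of Vim-negative cells, and Cldn7 in 66.0% (55.8 to 75.2) and 82.8%. Krt19 was found in 19.0% of Vim-positive cells (11.8 to 28.1) and 4.85% of Vim-negative cells, and Anxa2 in 53.0% (42.8 to 63.1) and 17.9%. Vim-positive cells thus held the simple-epithelial keratins, more often held Krt19 and Anxa2, and less often held the abundant claudins, by intervals that did not overlap. Most of them were Hhex-positive (81 of 100), and within Hhex-positive cells the claudin gap was smaller: Cldn3 was found in 66.7% (55.3 to 76.8) of the 81 Vim-positive and 73.0% of the 784 Vim-negative cells, and Cldn7 in 65.4% (54.0 to 75.7) and 74.5%. Those Vim-positive intervals include the share in Vim-negative cells.

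**Figure D4:**
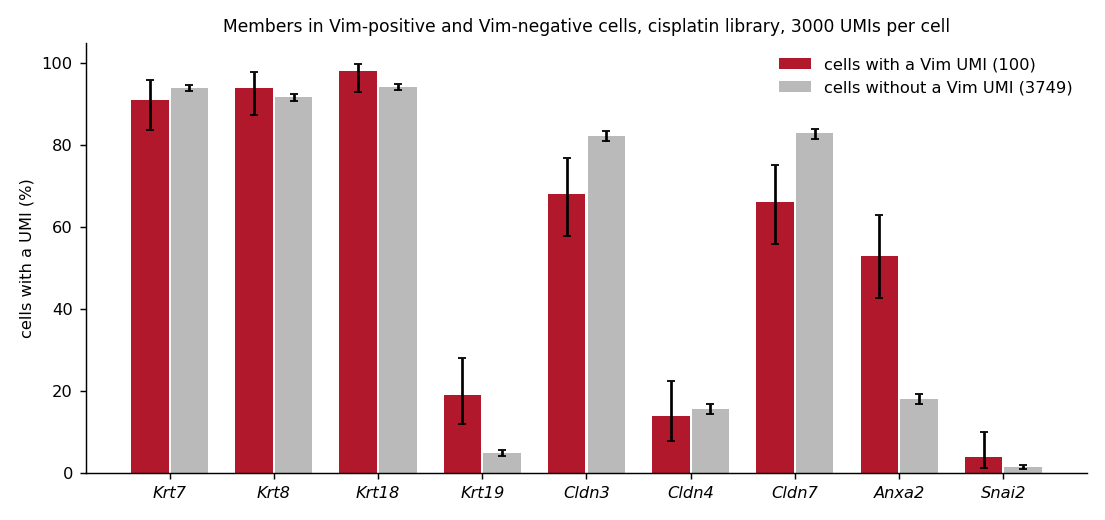
Percent of cisplatin tumour cells, thinned to 3000 UMIs, with a UMI of each other member among cells with a Vim UMI (red, 100 cells) and without (grey, 3749 cells), with exact 95% binomial intervals. Krt7, Krt8 and Krt18 are found in over 90% of both kinds, Krt19 and Anxa2 are more frequent and Cldn3 and Cldn7 less frequent in Vim-positive cells.

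Correlations over cells describe how the members vary among themselves. They use log-scaled UMIs of 4210 cisplatin and 3645 vehicle cells, which share a library and differ in depth. The pairs among Krt7, Krt8 and Krt18 had the highest values. Pearson r between the partners Krt8 and Krt18 was 0.43 in cisplatin and 0.40 in vehicle cells. The pairs of Krt19 with these keratins were low, at 0.08 to 0.09 in cisplatin and 0.03 to 0.08 in vehicle cells. Krt7 had 0.41 and 0.42 with Krt8, the highest pair in vehicle cells, and 0.40 and 0.30 with Krt18. Cldn3 and Cldn7 had 0.24 and 0.27, whereas the neighbouring Cldn3 and Cldn4 had 0.15 and 0.18. Vim and Anxa2 had 0.27 in cisplatin cells and 0.04 in vehicle cells, in which Vim was nearly absent.

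Among 9597 genes with at least 200 UMIs, the members themselves left out, those most like Krt18 over cisplatin cells were Resp18 (a secretory granule gene, r = 0.27), Tnfrsf12a (the TWEAK receptor, 0.23), Aldoa (a glycolytic aldolase, 0.22) and Cd63 (a tetraspanin, 0.20). For Cldn7 they were Cd9 (a tetraspanin, 0.26), Anxa1 (annexin A1, 0.25), Wfdc2 (an epithelial secreted protein, 0.20) and Ifitm3 (an interferon-induced membrane protein, 0.20). For Vim they were Lgals1 (galectin-1, 0.37), Hhex (0.33), Pcsk2 (a prohormone convertase, 0.33) and Scg2 (secretogranin II, 0.33). For Anxa2 they were Pcsk2 (0.39), Scg2 (0.38), Ceacam10 (0.37) and Anxa5 (annexin A5, 0.37). Neuroendocrine granule genes thus stood among the nearest genes of Vim and Anxa2. In vehicle cells the same genes had r from 0.05 to 0.19 with Vim and from 0.04 to 0.15 with Anxa2.

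Annexins and their S100 partners did not move as a family. In cisplatin cells 3 of the 14 measured were higher and 1 was lower; their median log2 ratio was 0.06, against -0.18 over all genes, of which 8.15% were higher and 21.3% lower. Anxa5, which binds phosphatidylserine, had 288 CPM in cisplatin and 97.7 CPM in vehicle cells. S100a10, the partner of annexin A2, had 70.4 and 31.0 CPM, a log2 ratio of 1.18 beside 1.80 for Anxa2. In Hhex-positive cells 4 of 14 were higher and 5 lower, against 10.3% and 13.6% of all genes. Anxa5 had 668 CPM in Hhex-positive and 149 CPM in Hhex-negative cells, S100a11 (another annexin partner) had 251 and 82.8 CPM, and Anxa1 had 188 and 612 CPM. Anxa1 was thus lower in Hhex-positive cells while Anxa2 and Anxa5 were higher. With TMM or median-of-ratios scaling 5 of the 14 were higher in cisplatin cells. Calls over all 13370 genes changed too, from 1089 higher and 2853 lower by CPM. They were 1572 and 1894 with TMM and 1670 and 1773 with median-of-ratios scaling. Rescaled counts of this list and of those below are to be read against these numbers, not against the CPM shares. The lists, like the members, were chosen with earlier results of these data known, so their counts are descriptions only.

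Other claudins were mostly lower in Hhex-positive cells, in 4 of 6 measured genes, and 0 were higher, against 13.6% and 10.3% of all genes. Their median log2 ratio was -1.04, against -0.06 over all genes. Between libraries 2 of 7 were higher in cisplatin cells and 1 lower, against 8.15% and 21.3% of all genes (median 0.33 against -0.18). Among Hhex-negative cells 4 of 7 were higher in cisplatin and 0 lower, against 5.8% and 20.4% of all genes (median 0.60 against -0.18). Cldn9 had 7.57 CPM in Hhex-positive and 27.3 CPM in Hhex-negative cells and Cldn23 15.5 and 34.7 CPM. Junction genes were lower in Hhex-positive cells in 12 of 26 and higher in 1 (median log2 ratio -0.50), against 13.6% and 10.3% of all genes. The desmosomal plakin Dsp had 26.1 CPM in Hhex-positive and 64.2 CPM in Hhex-negative cells and the polarity gene Pard3 8.09 and 17.9 CPM. Chosen after their values were seen, the E-cadherin gene Cdh1 had 98.0 and 210 CPM, while Epcam, the cell adhesion gene that was the 1 higher, had 2470 and 1579 CPM. Between libraries 8 of the 26 were lower in cisplatin cells and 0 higher, against 21.3% and 8.15% of all genes. Cgn (cingulin) had 18.6 CPM in cisplatin and 41.2 CPM in vehicle cells. With TMM or median-of-ratios scaling only 3 were lower, while the lower genes among all 13370 fell from 2853 to 1894 and 1773. Among Hhex-negative cells, by CPM, 3 of 26 junction genes were lower in cisplatin and 0 higher, against 20.4% and 5.8% of all genes.

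Epithelial regulators and surface genes were lower in Hhex-positive cells in 10 of 19 measured genes and higher in 1, against 13.6% and 10.3% of all genes. Ovol1 and Ovol2, zinc-finger factors that maintain epithelial identity, had 10.2 and 3.79 CPM in Hhex-positive cells and 32.2 and 14.7 CPM in Hhex-negative cells. Muc1, a membrane mucin, had 35.4 CPM in Hhex-positive and 101 CPM in Hhex-negative cells, and Prom1 (prominin 1) 0.783 and 4.69 CPM. Between libraries 8 of 20 were lower in cisplatin cells and 1 was higher, against 21.3% and 8.15% of all genes, and with TMM or median-of-ratios scaling 6 were lower and 2 higher. Among the lower were the splicing regulator Esrp2 with 8.02 CPM in cisplatin and 17.4 CPM in vehicle cells and the factor Grhl2 with 6.24 and 13.1 CPM. Among Hhex-negative cells 5 of 19 were lower in cisplatin and 1 higher by CPM, against 20.4% and 5.8% of all genes.

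The other factors and genes of epithelial-mesenchymal transition lay in both directions. Of 10 listed factors 4 were measured within the cisplatin library, where Zeb1 was higher, with 19.6 CPM in Hhex-positive and 10.1 CPM in Hhex-negative cells, and Zeb2 lower, with 1.57 and 5.94 CPM. Snai3 was also lower, with 9 and 72 UMIs (1.18 and 3.45 CPM), and Tcf4 had 77.3 and 72.0 CPM. By the 1.5-fold rule 1 of the 4 was thus higher and 2 lower, against 10.3% and 13.6% of all genes. Between libraries 0 of 5 measured factors were higher and 1 was lower by CPM, against 8.15% and 21.3% of all genes. So few genes lie near that background. With TMM or median-of-ratios scaling 1 was higher and 1 lower. Among mesenchymal genes 3 of 13 measured were higher in Hhex-positive cells and 4 lower (median log2 ratio 0.01), against 10.3% and 13.6% of all genes. The matrix metalloprotease gene Mmp14 had 18.7 CPM in Hhex-positive and 5.36 CPM in Hhex-negative cells and S100a4 4.44 and 1.63 CPM, while the collagen gene Col4a1 had 1.83 and 5.80 CPM and the integrin gene Itgav 6.40 and 18.7 CPM. Between libraries 2 of 14 measured mesenchymal genes were higher in cisplatin cells and 3 lower, against 8.15% and 21.3% of all genes. Their median log2 ratio was -0.29, against -0.18 over all genes. Spp1 (osteopontin), 1 of the 2 higher, had 10.4 CPM in cisplatin and 2.62 CPM in vehicle cells.

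The list of further non-neuroendocrine genes was mixed: in cisplatin cells 4 of its 12 measured genes were higher and 3 lower (8.15% and 21.3% of all genes), or 1 lower with TMM or median-of-ratios scaling. Lgals1 had 131 CPM in cisplatin and 6.40 CPM in vehicle cells, and 401 CPM in Hhex-positive and 32.2 CPM in Hhex-negative cells. The tetraspanin-like gene Tm4sf1 had 26.6 CPM in cisplatin and 2.37 CPM in vehicle cells, and 87.7 CPM in Hhex-positive and 4.17 CPM in Hhex-negative cells. The Notch target Hes1 had 94.1 CPM in cisplatin and 30.4 CPM in vehicle cells, whereas the receptor gene Tgfbr2 had 0.911 and 1.97 CPM. In Hhex-positive cells 2 of its 8 measured genes were higher and 1 lower (median log2 ratio -0.27), against 10.3% and 13.6% of all genes.

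Of the intermediate filament genes outside the panel 0 of 9 measured were higher in cisplatin cells and 4 lower, or 3 lower with TMM or median-of-ratios scaling. Over all genes 8.15% were higher and 21.3% lower by CPM, so a count of 0 higher among 9 lies near the background. The 4 lower of 9 made a larger share than the 21.3% of all genes. The median log2 ratio of the list was -0.57, against -0.18 over all genes. Among Hhex-negative cells 2 of 8 were lower in cisplatin and 0 higher by CPM, against 20.4% and 5.8% of all genes. In Hhex-positive cells 1 of 7 measured filament genes was higher and 1 lower, against 10.3% and 13.6% of all genes. The higher gene was the peripheral neuron filament gene Prph, with 30.9 CPM in Hhex-positive and 11.4 CPM in Hhex-negative cells. Of 10 other keratins the only gene measured in every comparison was Krt10, with 87.9 CPM in cisplatin and 44.5 CPM in vehicle cells and with 115 CPM in Hhex-positive and 78.1 CPM in Hhex-negative cells, a ratio inside the limit by CPM and past it with TMM or median-of-ratios scaling. The basal cell keratins Krt5, Krt14 and Krt15 had 0 UMIs in cisplatin tumour cells.

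**Figure D5:**
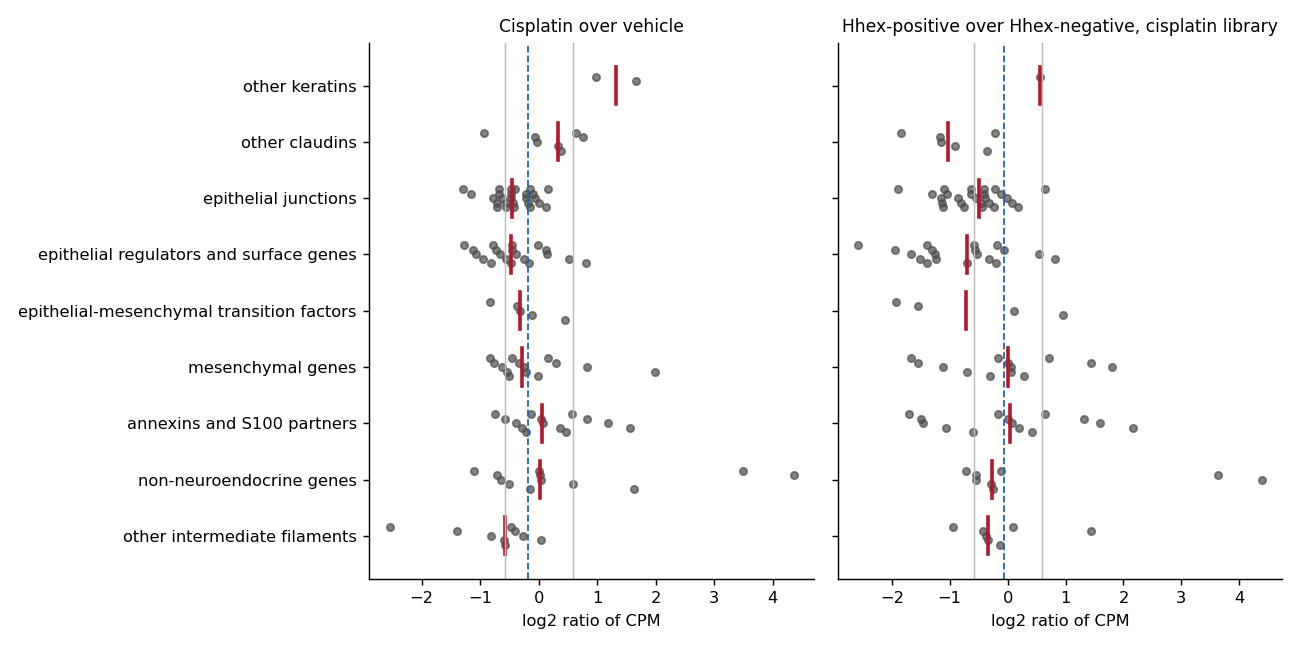
Log2 ratio of CPM of every measured gene (points) of 9 gene lists, cisplatin over vehicle (left) and Hhex-positive over Hhex-negative cells of the cisplatin library (right). Red bars are list medians, the dashed line is the median of all genes (-0.18 and -0.06) and grey lines mark 1.5-fold; the highest points of the non-neuroendocrine list are Lgals1 and Tm4sf1.

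Markers of other cell types moved with the groups for some lists. Between libraries the summed alveolar type 2 markers had 199.7 CPM in cisplatin and 56.3 CPM in vehicle cells, club cell markers 481 and 200.2 CPM, ciliated cell markers 129 and 60.5 CPM, macrophage markers 41.8 and 21.1 CPM, and fibroblast markers 84.7 and 99.1 CPM. Erythroid markers had 0.736 CPM in cisplatin and 53.9 CPM in vehicle cells and neutrophil markers 3.26 and 23.7 CPM, both lower in cisplatin. The summed fibroblast markers had 127 CPM (119 to 135) in Hhex-positive and 69.2 CPM (65.7 to 72.9) in Hhex-negative cells, of which Gsn, a gene of many cell types, made 75.7% and 74.5%. Of the 10 fibroblast markers 5 were detected, and Col1a1, Lum, Pdgfra, Col6a1 and Dpt had 0 UMIs in Hhex-positive cells. The macrophage markers had 70.9 CPM in Hhex-positive and 31.1 CPM in Hhex-negative cells, with 8 of 12 detected in Hhex-positive cells, Cd74 leading at 49.0 CPM and C1qb, Adgre1, Fcer1g and Ctss at 0 there. The alveolar type 2 markers had 564 CPM in Hhex-positive and 65.9 CPM in Hhex-negative cells, and in Hhex-positive cells 6 of 8 were detected, 90.3% of the sum came from Sftpc, the surfactant protein C gene, and Slc34a2 and Lyz1 were at 0. The ciliated cell markers had 216 CPM in Hhex-positive and 96.7 CPM in Hhex-negative cells. The endothelial markers had 18.9 and 11.7 CPM, the pericyte markers 4.31 and 2.92 CPM and the mesothelial markers 7.44 and 7.33 CPM. The part of these in the levels of Vim, Anxa2 and Krt19 was not tested.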

How the data were processed

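The authors deposited raw UMI counts per gene and cell barcode as matrices of whole numbers, per the file headers, and no normalization was evident; the submitters' processing notes list Cell Ranger 2.0.2 and mm10 and give no settings. Barcodes with under 500 genes or over 10% mitochondrial UMIs were removed (36 of 4254 in cisplatin, 54 of 3726 in vehicle), as were those in which 3 or more markers of some other type were detected (8 and 27), counting only markers present in under 2% of barcodes. The deposited totals were 28777462 and 32519922 UMIs. No doublet caller was run. UMIs were summed per group, scaled to CPM and compared as a ratio without pseudocount; a called gene differed 1.5-fold and had at least 50 UMIs over both groups. Hhex-positive cells had at least 1 Hhex UMI. Intervals are exact 95% Poisson or Clopper-Pearson intervals. Genes were matched to GENCODE M21 by identifier (28416 matched, 276 not).

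Named genes are the 10 members, up to 4 genes per list with the largest ratio in a comparison, the Hhex, Isl1 and neuroendocrine checks, and for 4 members the 4 genes with the highest Pearson r of log-scaled, depth-normalized UMIs. Members and lists (161 genes, 160 in the matrices) were chosen with earlier results of these data known. The comparison step was tested on simulated data. Python 3.11.15, numpy 2.4.6, scipy 1.17.1, pandas 2.3.3, matplotlib 3.10.9, R 4.3.3, edgeR 4.0.16 (TMM) and DESeq2 1.42.0 (size factors) were used. Alternatives were other scalings, a mean over cells, 1 CPM added, other limits on UMIs and fold, other barcode filters, other definitions of Hhex-positive cells and other depths of thinning. The result of 1 gene among the neuroendocrine checks is not reported here.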

Additional observations from a re-analysis of the deposited data

Results flagged for a closer look

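Krt19, Vim and Anxa2 had higher levels in the barcodes with markers of other cell types, which were left out of the comparisons between groups, than in the tumour cells of the same library. In the cisplatin library 8 such barcodes had 54.3 CPM of Krt19, 101 CPM of Vim and 233 CPM of Anxa2. In the vehicle library 27 such barcodes had 329 CPM of Krt19, 386 CPM of Vim and 265 CPM of Anxa2. The vehicle Krt19 UMIs were all in 3 barcodes with alveolar type 2 markers (90 UMIs) and 1 with club or secretory markers (3 UMIs). Of the vehicle Vim UMIs 78 were in 1 of 3 barcodes with macrophage or dendritic cell markers and 22 in barcodes with endothelial markers.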

How the results depend on the processing

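No paired analysis was possible because each group is 1 library and the labels give no replicate numbers. The number of members at least 1.5-fold higher varied over the alternatives from 3 to 4 between libraries, from 3 to 4 between Hhex-positive and Hhex-negative cells, and from 2 to 4 between libraries in Hhex-negative cells. The number of members lower in Hhex-positive cells, 0 as reported, was 1 (Cldn3) with a mean over cells, without the 5% of barcodes with the most UMIs and with Hhex-positive cells called after thinning, and 2 (Cldn3 and Cldn7) with Hhex at 2 UMIs or more and with Hhex and Isl1; Cldn3 lay just inside the limit by summed CPM. The Vim ratio in Hhex-negative cells reversed to -0.15 (log2) with barcodes of other cell types kept in, and it was 1.42 with 1 CPM added; between libraries it was 3.29 with 1 CPM added and 1.97 with barcodes of other cell types kept in. TMM and median-of-ratios scaling moved the log2 ratios between libraries up by 0.15 and 0.18 and those by Hhex up by 0.06 each. Calls over all genes between libraries were then 1572 higher and 1894 lower with TMM and 1670 and 1773 with median-of-ratios, against 1089 and 2853 by CPM. In Hhex-negative cells they were 1209 and 1704 with TMM and 1283 and 1585 with median-of-ratios, against 758 and 2669. The number of members with a 1.5-fold higher share of cells was 3 at 3000 and 2000 UMIs and unthinned, and the same count was not made over all genes. The 51 Hhex-positive vehicle cells limit what can be read from that group.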
